A study of Mus musculus with 6 samples.

Results

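Chemokine and formyl peptide receptors are the G protein-coupled receptors with which myeloid cells sense the chemical gradients they migrate along. The 8 described here are Ccr1, Ccr2, Ccr7, Ccrl2, Cxcr4, Cx3cr1, Fpr1 and Fpr2, taken by gene name out of 54532 genes measured by RNA-seq. The 6 libraries came from primary macrophages grown out of mouse bone marrow, 3 labelled NSUN2-KO and 3 labelled NC, and every culture in both groups had been polarized to the inflammatory M1 phenotype with LPS and IFN-γ. NSUN2 is an RNA methyltransferase that deposits 5-methylcytosine. The meaning of NC, the method of the knockout, and the strain, age and sex of the mice are not recorded in the labels. The design text gives 3 biological replicates per group in one place and 2 per condition in another, and the table holds 3 columns per group, all used here. No animal or culture is recorded for each, so the p-values measure the spread between these libraries.

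Most of these receptors couple to inhibitory G proteins, release βγ subunits that drive calcium release and cell polarity, and are then switched off by receptor kinases, arrestins and RGS proteins. Ccr1, Ccr2 and Cx3cr1 guide monocytes and macrophages to inflamed tissue, Ccr7 guides activated antigen-presenting cells to lymph nodes, and Cxcr4 retains cells in bone marrow. Fpr1 and Fpr2 detect formylated peptides shed by bacteria and mitochondria, whereas Ccrl2 is an atypical receptor that binds chemerin without signalling through G proteins and offers it to Cmklr1. In macrophages, inflammatory stimuli are known to raise Ccrl2, Ccr7, Fpr1 and Fpr2 and to lower Ccr2.

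In GRCm38, the build of the deposited positions, 4 of the 8 genes lie on chromosome 9 and 2 on chromosome 17. Ccrl2 (ENSMUSG00000043953, chr9:111054486-111057519, minus strand) stands 12.9 Mb from Ccr1 (ENSMUSG00000025804, chr9:123962124-123968692, minus strand). Ccr2 (ENSMUSG00000049103, chr9:124101950-124113557, plus strand) follows Ccr1, with starts 133258 bases apart. Cx3cr1 (ENSMUSG00000052336, chr9:119901616-120069879, minus strand) has an annotated span that overlaps 9 other genes. Fpr1 (ENSMUSG00000045551, chr17:17876471-17883940, minus strand) and Fpr2 (ENSMUSG00000052270, chr17:17887824-17893952, plus strand) are transcribed away from each other from starts 3884 bases apart. Ccr7 (ENSMUSG00000037944) lies at chr11:99144196-99155077 and Cxcr4 (ENSMUSG00000045382) at chr1:128588199-128592293, both on the minus strand.

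Promoter sequences from RefSeq (GRCm38.p6), running from 250 bases before to 50 after the start, matched 7 of the 8 genes, all but Ccr7. Those of Ccrl2 (chr9:111057469-111057768, minus strand), Fpr1 (chr17:17883890-17884189, minus strand) and Fpr2 (chr17:17887574-17887873, plus strand) are shown, since these 3 genes rose in NSUN2-KO macrophages and the Fpr pair shares one intergenic stretch. Each is written 5′ to 3′ on the strand of its gene. Capitals mark matches on either strand to the NF-κB type motif (GGG and CC with 5 free bases between), TTCNNNGAA, the interferon-γ activated sequence, or ACGTG, the core of the hypoxia response element.
Ccrl2: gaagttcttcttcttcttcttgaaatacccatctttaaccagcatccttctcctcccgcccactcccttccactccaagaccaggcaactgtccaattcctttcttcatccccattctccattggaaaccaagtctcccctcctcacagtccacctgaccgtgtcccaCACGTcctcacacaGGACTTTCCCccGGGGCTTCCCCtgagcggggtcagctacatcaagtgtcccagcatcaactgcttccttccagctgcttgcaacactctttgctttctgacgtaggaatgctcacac
Fpr1: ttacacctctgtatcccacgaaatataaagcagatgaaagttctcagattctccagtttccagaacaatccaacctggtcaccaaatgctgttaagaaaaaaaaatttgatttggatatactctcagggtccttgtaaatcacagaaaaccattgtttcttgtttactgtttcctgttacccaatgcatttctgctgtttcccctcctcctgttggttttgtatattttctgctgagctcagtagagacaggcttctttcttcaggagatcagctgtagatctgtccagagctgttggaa
Fpr2: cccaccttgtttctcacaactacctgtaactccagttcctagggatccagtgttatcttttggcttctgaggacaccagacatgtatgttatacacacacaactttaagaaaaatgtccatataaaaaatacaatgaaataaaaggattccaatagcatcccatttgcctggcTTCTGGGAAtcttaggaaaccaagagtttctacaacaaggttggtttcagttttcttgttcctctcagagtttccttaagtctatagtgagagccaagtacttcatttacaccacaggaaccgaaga
The Ccrl2 window held 3 matches to the NF-κB type motif, beginning 68, 56 and 55 bases before the start, of which the last 2 overlap. It also held 1 ACGTG match, 82 bases before the start. The Fpr2 window held 1 TTCNNNGAA match, 77 bases before the start, and the Fpr1 window held no match to any of the 3 motifs. Among 32851 mouse promoters of the same length, 50.8% had the NF-κB type motif, 19.6% had ACGTG and 8.3% had TTCNNNGAA. Ccr1 and Cx3cr1 had 1 NF-κB type match each, while Ccr2 and Cxcr4 had none of the 3 motifs. The promoter starts of Ccr2 and Cx3cr1 lie 233 and 1583 bases from the deposited gene starts. Ccrl2 had 3 promoter sequences, and the one nearest the deposited gene start was used here. All motif matches are letters only, and no binding was measured.

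The 6 libraries held 35019033 to 45636131 reads, and 1 read in a 1-kb gene was worth 0.0218 to 0.0285 FPKM (fragments per kilobase, corrected for library depth). Nsun2 itself read 0.967, 1.36 and 0.863 FPKM in NSUN2-KO, against 1.88, 2.04 and 1.84 FPKM in NC, a mean at 55.4% of the NC level (log2 fold change -0.51, limma adjusted p = 0.0228), a call that held only without NSUN2-KO replicate 2 when 1 library was left out (up to 0.0845 otherwise). The 4 Y-linked genes examined, Ddx3y, Eif2s3y, Uty and Kdm5d, had 0 reads in every NSUN2-KO library and 0.532 to 6.95 FPKM in NC, and Xist read 29.4 to 31.8 FPKM in NSUN2-KO, against 14.0 to 15.5 FPKM in NC. Xist and the Y-linked genes were both read in every NC library. Sex and genotype cannot be told apart in any comparison below. All 9 macrophage markers passed the filter on low values. Their levels summed to 3254 to 3294 FPKM in NSUN2-KO and 3877 to 3966 FPKM in NC. At a limma adjusted p below 0.05, 5 of them were lower in NSUN2-KO, beside 4.3% of all tested genes. Lists of T and NK cell, B cell, and mast cell and basophil markers had no member that reached the filter.

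Levels of the 8 receptors spread over a wide range, as the plot of FPKM per library shows. Averaged over the 6 libraries, Ccr1 stood highest at 222.6 FPKM. Fpr1 came next at 143 FPKM, Fpr2 at 136 FPKM and Ccrl2 at 67.7 FPKM. Ccr2 reached 8.18 FPKM, Ccr7 4.11 FPKM, Cxcr4 1.05 FPKM and Cx3cr1 0.392 FPKM. Within each group the ranges of neighbours in this order were separate, except that those of Fpr1 and Fpr2 overlapped in NSUN2-KO, though not in NC. Fpr1 still read above Fpr2 within each of the 6 libraries. The summed level of the 8 genes was 617, 624 and 574 FPKM in NSUN2-KO, against 567, 548 and 568 FPKM in NC, ranges that do not overlap. Ccr1 made up 35.4% of that sum in NSUN2-KO and 41.1% in NC, and Ccrl2 made up 12.6% in NSUN2-KO and 10.5% in NC.

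**Figure D1:**
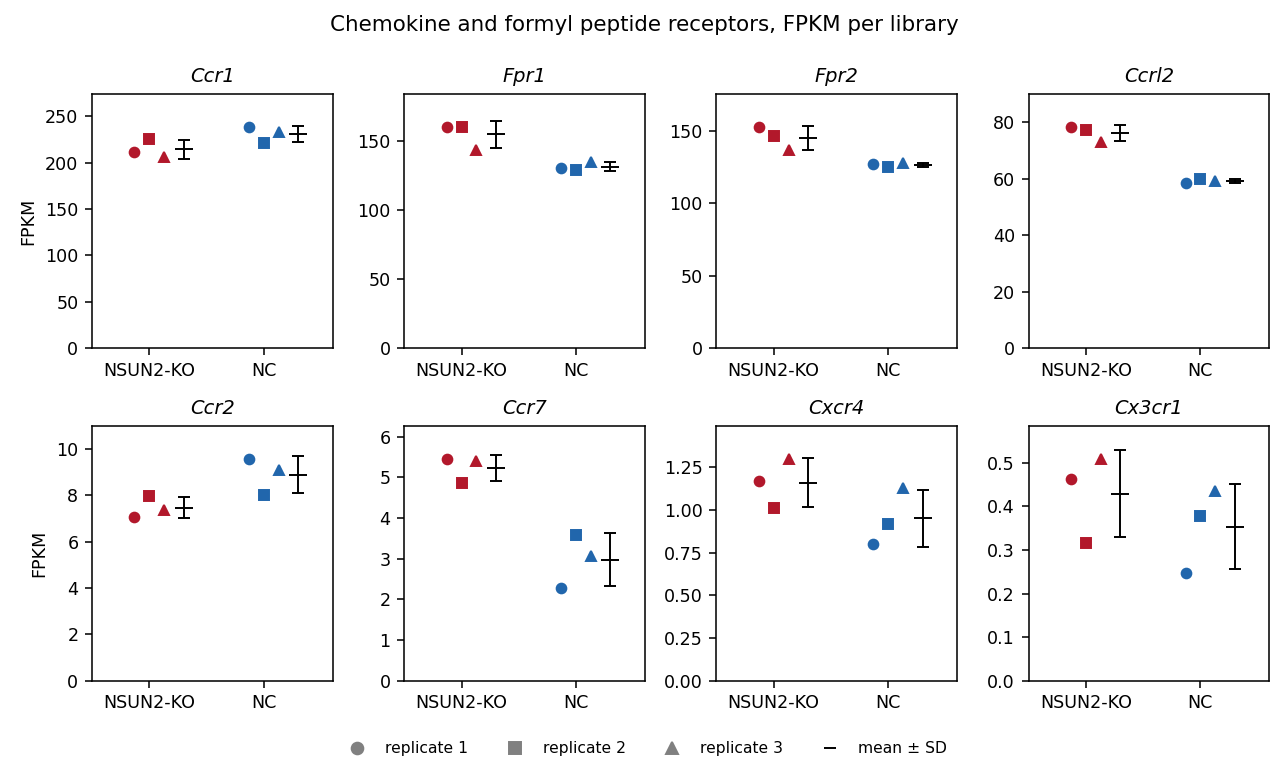
Level of each of the 8 receptor genes in FPKM (vertical axis, linear, from 0) in the 3 NSUN2-KO libraries (left of each panel) and the 3 NC libraries (right); points are libraries and the bar is the mean ± SD. Ccr7, Ccrl2, Fpr1 and Fpr2 lie higher in every NSUN2-KO library, while Ccr1, Cxcr4 and Cx3cr1 overlap between the groups.

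Of the 8 receptors, 7 had a mean of at least 1 FPKM and were tested with limma on log2(FPKM + 1), and Cx3cr1 fell short. At an adjusted p below 0.05, 4 were higher in NSUN2-KO macrophages (Ccr7, Ccrl2, Fpr1 and Fpr2), none was lower, and 3 did not pass (Ccr1, Ccr2 and Cxcr4). The background at that threshold was 4.19% of 9443 tested genes called higher, 4.3% called lower and 8.49% called in either direction. At an unadjusted p below 0.05, 2 were lower (Ccr1 and Ccr2), beside 13.7% of tested genes. Limma voom on recovered reads called 1 lower, Ccr2, beside 7.03% of tested genes. The median log2 fold change of the tested receptors was 0.20, beside -0.01 for all tested genes. Without NSUN2-KO replicate 1 the count called higher was 1, without NSUN2-KO replicate 3 it was 4, and without any other library it was 2. The groups did not overlap for 5 of the 7 (Ccr2 besides the 4 called), beside 31.1% of all tested genes. In bulk RNA, fewer cells of a type and less RNA per cell cannot be told apart.

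Ccrl2, the atypical chemerin receptor, had the smallest p-value of the set. It read 78.3, 77.2 and 72.9 FPKM in NSUN2-KO, against 58.5, 59.9 and 59.2 FPKM in NC. Every NSUN2-KO library lay above every NC library, and the gap between the groups exceeded the range within either. The means were 76.1 ± 2.83 FPKM in NSUN2-KO and 59.2 ± 0.687 FPKM in NC (SD, n = 3 each), a 1.29-fold ratio with a log2 fold change of 0.36 ± 0.036 (SE, adjusted p = 0.00145, limma). Behind these levels were 7038 to 8172 reads per NSUN2-KO library and 5876 to 7124 per NC library. Of the 4 receptors called, it was the one that stayed past the threshold under all 17 alternative settings. Its chemerin ligand gene, Rarres2, was not tested, because its level was under 1 FPKM in the mean. Cmklr1, the signalling chemerin receptor, moved the other way: it read 12.71, 13.03 and 12.84 FPKM in NSUN2-KO, against 15.7, 16.3 and 16.2 FPKM in NC, and fell by 0.30 on the log2 scale (adjusted p = 0.00359, limma).

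Ccr7, the lymph node homing receptor, had the largest fold change of the tested receptors at a low level. It read 5.45, 4.87 and 5.40 FPKM in NSUN2-KO, against 2.29, 3.58 and 3.07 FPKM in NC. The groups did not overlap, and NC replicate 1 was the lowest of all. Mean levels were 5.24 ± 0.319 FPKM in NSUN2-KO and 2.98 ± 0.649 FPKM in NC, a 1.76-fold ratio. The log2 fold change was 0.66 ± 0.115 (SE; 95% interval 0.40 to 0.93; adjusted p = 0.0144, limma). It rested on 338 to 433 reads in NSUN2-KO libraries and 175 to 324 in NC libraries, and the adjusted p was 0.0600 without NSUN2-KO replicate 1. Dendritic cells are another known source of Ccr7. Their 9 remaining markers summed to 4.69 to 5.90 FPKM in NSUN2-KO and 4.35 to 4.66 FPKM in NC, with neither of the 2 tested ones called. Among them Xcr1 stood at 3.68, 3.12 and 2.83 FPKM in NSUN2-KO, against 2.62, 2.38 and 2.24 FPKM in NC. These groups did not overlap, and the log2 fold change of Xcr1 was 0.30. The other tested marker had a negative log2 fold change, and the median of the 2 was 0.09. Of the 7 markers under 1 FPKM in the mean, the highest averaged 0.498 FPKM, and Flt3 and Zbtb46 stayed at or under 0.0688 FPKM. The part of dendritic cells in the Ccr7 difference was not tested. The ligands of Ccr7, Ccl19 and Ccl21a, had 0 reads in every library, which allows up to 0.0986 and 0.0983 FPKM by a floor of 3 reads per library, counting error only.

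The formyl peptide receptors rose together by a small margin. Fpr1, the high-affinity receptor for bacterial formyl peptides, read 160.4, 160.2 and 144 FPKM in NSUN2-KO, against 130.3, 129 and 135 FPKM in NC. Fpr2, which also answers to annexin A1, serum amyloid A and cathelicidin, read 153, 146 and 136 FPKM in NSUN2-KO, against 127, 125 and 127 FPKM in NC. For both genes the groups were separate, and NSUN2-KO replicate 3 was the library nearest to NC. Fpr1 averaged 154.8 ± 9.45 FPKM in NSUN2-KO and 131.5 ± 3.24 FPKM in NC, with a log2 fold change of 0.23 ± 0.047 (SE, adjusted p = 0.0246, limma). Fpr2 averaged 145 ± 8.19 FPKM in NSUN2-KO and 126.5 ± 1.29 FPKM in NC, with a log2 fold change of 0.20 ± 0.043 (SE, adjusted p = 0.0309, limma). These calls are near the threshold. Leaving out any library except NSUN2-KO replicate 3 ended both, with adjusted p up to 0.0949 for Fpr1 and 0.101 for Fpr2, whereas without that replicate they were 0.00678 and 0.0123. The ratio of Fpr1 to Fpr2 was 1.05, 1.09 and 1.05 in NSUN2-KO, against 1.03, 1.03 and 1.06 in NC, which overlap (exact two-sided permutation p = 0.3, where 0.1 is the smallest that 3 against 3 allows). The annotated span of Fpr2 overlaps that of Fpr3, a gene on the same strand that averaged 0.251 FPKM. Exons of the Fpr2 and Fpr3 genes were not compared. Neutrophils are another rich source of both receptors. Their 12 markers summed to 169 to 181 FPKM in NSUN2-KO and 179.8 to 185 FPKM in NC. Of 7 tested, 1 was higher (Lcn2) and 3 lower (Csf3r, S100a9 and Mmp8), beside 4.19% and 4.3% of all tested genes. The highest value of any of the 12 in any library was 95.9 FPKM. The 5 untested markers had means up to 0.249 FPKM. Among these 5, Elane and Retnlg were at 0 and Ly6g at or under 0.220 FPKM in every library. The part of neutrophils in the Fpr values was not tested.

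Ccr1, the receptor for Ccl3, Ccl5 and related ligands, was the most abundant of the set and did not pass the test. It read 211, 226 and 206 FPKM in NSUN2-KO, against 239, 221 and 233 FPKM in NC. The ranges overlapped, since NSUN2-KO replicate 2 exceeded NC replicate 2. The log2 fold change was -0.11 ± 0.044 (SE; 95% interval -0.21 to -0.0035; adjusted p = 0.183, limma). Ccr2, the receptor for Ccl2, Ccl7 and Ccl12 on inflammatory monocytes, read 7.07, 7.98 and 7.35 FPKM in NSUN2-KO, against 9.55, 8.02 and 9.09 FPKM in NC. Its groups just failed to meet, with NSUN2-KO replicate 2 beside NC replicate 2, and the log2 fold change of -0.22 ± 0.070 (SE) did not pass (adjusted p = 0.0943, limma). Monocyte markers other than Ccr2 summed to 56.3 to 63.2 FPKM in NSUN2-KO and 48.9 to 50.3 FPKM in NC. Of these 5 markers, 1 was higher, beside 4.19% of all tested genes. It was Ly6c2, at 21.8 FPKM in NSUN2-KO and 14.2 FPKM in NC. The part of monocytes in the Ccr2 values was not tested.

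GC content moved with the fold changes across the whole table. Over 9433 tested genes, which share the same 6 libraries, the Spearman correlation of log2 fold change with GC content was -0.374. Ccr1 and Ccr2 were 39.1% and 39.4% GC, below the median of 49.2%. Fpr2 (44.1%), Fpr1 (45.9%), Cxcr4 (46.1%) and Ccrl2 (48.9%) were below it too, and Ccr7 (53.5%) was above. After the GC content and length trends of each library were taken out, both passed as lower in NSUN2-KO. Ccr1 stood at -0.15 (adjusted p = 0.00812, limma) and Ccr2 at -0.28 (adjusted p = 0.0199, limma). In that setting 367 of the 9433 genes were called lower. The 4 receptors called higher still passed. Fpr2 went from 0.20 to 0.15, a narrow pass (adjusted p = 0.0496, limma). Fpr1 went from 0.23 to 0.20 (adjusted p = 0.0199, limma). Ccrl2 stayed at 0.36, and Ccr7 went from 0.66 to 0.70.

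Cxcr4, the receptor for Cxcl12, and Cx3cr1, the fractalkine receptor of patrolling monocytes and tissue macrophages, had the lowest levels of the set. Cxcr4 read 1.17, 1.01 and 1.30 FPKM in NSUN2-KO, against 0.801, 0.918 and 1.13 FPKM in NC, from 56 to 88 reads. Its groups overlapped and the log2 fold change was 0.15 ± 0.096 (SE; 95% interval -0.07 to 0.37; adjusted p = 0.384, limma), or 0.09 without NC replicate 1. Cx3cr1 read 0.464, 0.316 and 0.508 FPKM in NSUN2-KO, against 0.247, 0.378 and 0.437 FPKM in NC, from 43 to 86 reads, and the groups overlapped (exact two-sided permutation p = 0.4). The annotated span of Cx3cr1 overlaps genes read more deeply, such as Csrnp1 (same strand, 25.0 FPKM) and Wdr48 (opposite strand, 5.48 FPKM). Only spans were compared, not exons, and whether the counting used strand is not recorded in the labels. Whether reads of these genes entered the Cx3cr1 values was not tested.

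**Figure D2:**
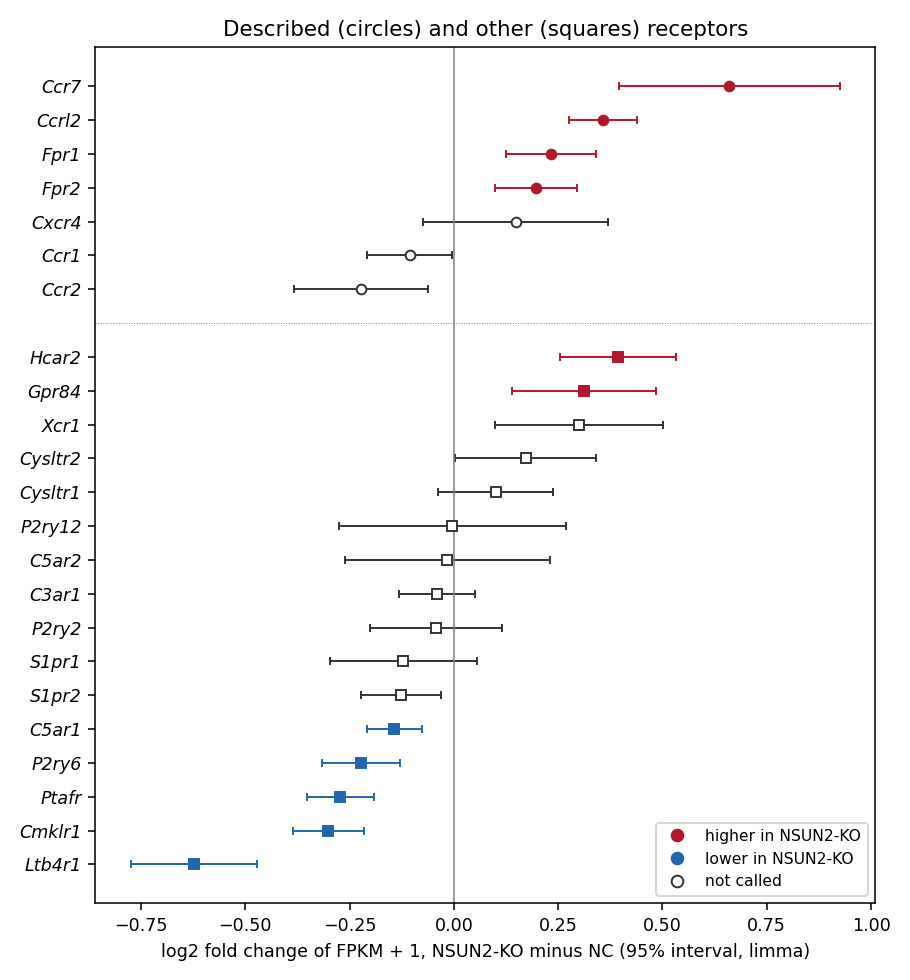
Difference of mean log2(FPKM + 1) between NSUN2-KO and NC (NSUN2-KO minus NC), with its 95% interval (horizontal axis), for the 7 tested receptors of the 8 described (circles) and the other tested chemoattractant receptors (squares); filled symbols have a limma adjusted p below 0.05. Ccr7 at 0.66 lies farthest to the right and Ltb4r1 at -0.62 farthest to the left.

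Other chemoattractant receptors were listed to place these changes. Of the 18 further chemokine receptors reported on, 1 reached 1 FPKM. It was Xcr1, the receptor for Xcl1, whose values stand above beside those of Ccr7 and which did not pass (0.30, adjusted p = 0.0768, limma). It passed by limma voom (0.41, adjusted p = 0.0134) and among protein-coding genes only (adjusted p = 0.0383, limma). None of the other 5 formyl peptide receptor genes reached 1 FPKM, and Ccr3, at 0.942 FPKM, fell just short among the chemokine receptors.

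Of 19 receptors for lipids, complement and other attractants, 15 were tested. Of these, 2 were higher and 5 lower, beside 4.19% and 4.3% of all tested genes. The leukotriene B4 receptor Ltb4r1 read 14.8, 16.8 and 14.0 FPKM in NSUN2-KO, against 25.0, 23.3 and 23.4 FPKM in NC, and fell by 0.62 on the log2 scale (adjusted p = 0.00191, limma). The platelet-activating factor receptor Ptafr averaged 47.1 FPKM in NSUN2-KO and 57.0 FPKM in NC (-0.27, adjusted p = 0.00448, limma). The nucleotide receptor P2ry6 and the C5a receptor C5ar1 also fell, by 0.22 and 0.14 on the log2 scale. The niacin receptor Hcar2 rose, at 22.6 FPKM in NSUN2-KO and 16.97 FPKM in NC (0.39, adjusted p = 0.00943, limma), as did Gpr84, named after its values were seen to complete the count. Adding up the 3 lists, 16 receptors were tested, 2 were higher, 5 lower and 9 not called, with a median log2 fold change of -0.04.

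Among 19 ligand genes of the 8 receptors, 14 were tested, 5 rose, 1 fell and 8 did not pass. Over all tested genes, 4.19% were higher and 4.3% lower. The median log2 fold change of the 14 was 0.10, beside -0.01 for all tested genes. Ccl3, a ligand of Ccr1, read 117, 116 and 96.0 FPKM in NSUN2-KO, against 68.4, 67.4 and 67.2 FPKM in NC (0.68 ± 0.072 SE, adjusted p = 0.0019, limma). Ccl4, a chemokine close to Ccl3, averaged 141 FPKM in NSUN2-KO and 103.6 FPKM in NC (0.44, adjusted p = 0.0126, limma). The Ccr2 ligands Ccl12 and Ccl7 rose by 0.41 and 0.27, and Mif, which binds Cxcr4, by 0.23. In each of these genes NSUN2-KO replicate 3 was the lowest of its group, as it was for Ccrl2, Fpr1 and Fpr2, yet it lay above every NC library. Ccl6, a Ccr1 ligand found in rodents, read 14.0, 14.3 and 13.7 FPKM in NSUN2-KO, against 21.7, 19.8 and 22.2 FPKM in NC, and fell by 0.57 on the log2 scale (adjusted p = 8.0e-04, limma). Ccl2, the main Ccr2 ligand, averaged 2605 FPKM in NSUN2-KO and 2404 FPKM in NC and did not pass (0.12, adjusted p = 0.0989, limma). Of the Fpr2 ligands, Anxa1 at 109 FPKM in NSUN2-KO and 103 FPKM in NC, and Saa3 at 2766 FPKM in NSUN2-KO and 2882 FPKM in NC, did not pass either. The 5 ligands under 1 FPKM were Ccl19, Ccl21a, Cxcl12, Cx3cl1 and Rarres2, which serve Ccr7, Cxcr4, Cx3cr1 and Ccrl2, and no library held over 0.143 FPKM of any.

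**Figure D3:**
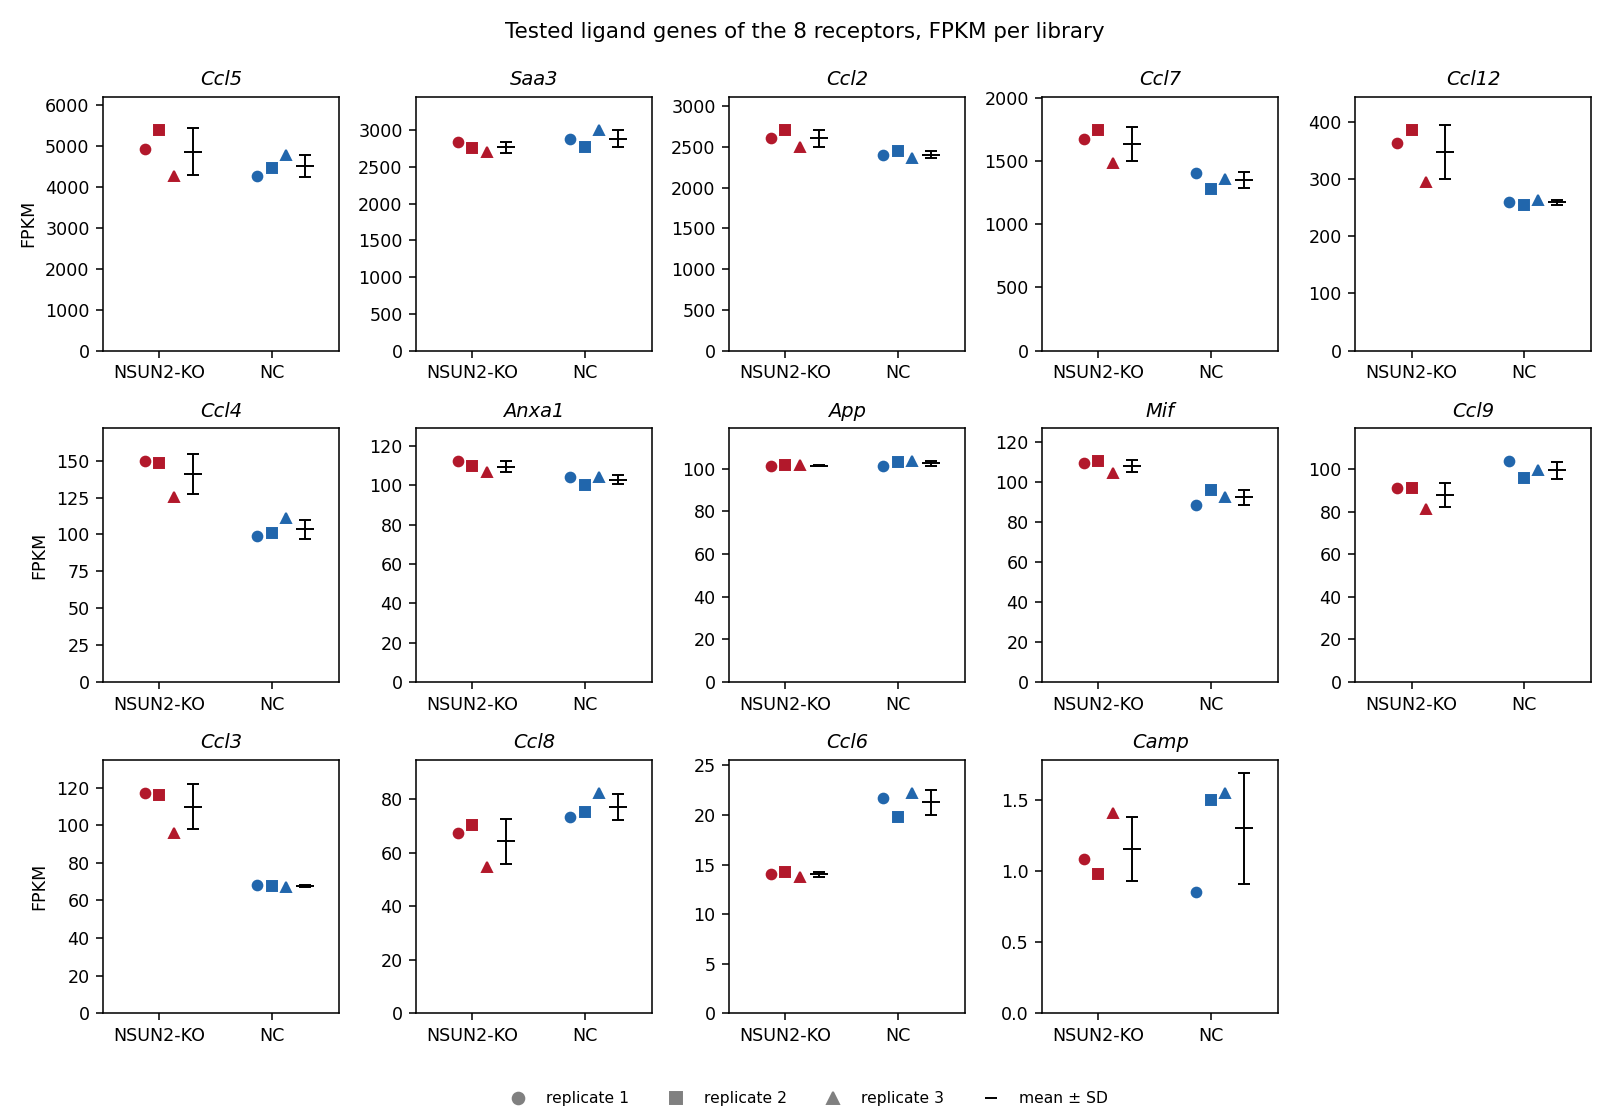
Level of the 14 tested ligand genes in FPKM (vertical axes, linear, from 0) in the NSUN2-KO libraries (left of each panel) and the NC libraries (right); points are libraries and the bar is the mean ± SD. Ccl3 stands at 96.0 to 117 FPKM in NSUN2-KO and 67.2 to 68.4 FPKM in NC, and Ccl6 at 13.7 to 14.3 FPKM in NSUN2-KO and 19.8 to 22.2 FPKM in NC.

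Of 29 tested genes that carry or end the receptor signal, 2 were higher, 1 lower and 26 not called. Over all tested genes, 4.19% were higher, 4.3% lower and 8.49% called in either direction. The median log2 fold change of the 29 was -0.08, beside -0.01 for all tested genes. Arrb2, the arrestin that uncouples and internalizes chemoattractant receptors, read 34.1, 34.4 and 34.8 FPKM in NSUN2-KO, against 41.5, 44.3 and 43.4 FPKM in NC (-0.31, adjusted p = 0.00256, limma). Rgs1, which speeds the shut-off of inhibitory G proteins, read 10.3, 10.2 and 9.70 FPKM in NSUN2-KO, against 8.01, 7.58 and 8.63 FPKM in NC (0.29, adjusted p = 0.0201, limma). The G protein γ subunit Gng12 averaged 19.9 FPKM in NSUN2-KO and 16.7 FPKM in NC (0.24, adjusted p = 0.0356, limma).

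Of the receptors, ligands and signalling genes beyond the 8, Ltb4r1, Cmklr1, Ptafr, Ccl3, Ccl6 and Arrb2 passed under all 17 alternatives. Hcar2 passed without any 1 library. Other calls ended when 1 library was left out. Ccl7 and Ccl12 passed only without NSUN2-KO replicate 3 (adjusted p up to 0.125 and 0.101 without another library, limma), and Gpr84 only without NSUN2-KO replicate 2 (up to 0.132). Ccl4 missed without NSUN2-KO replicate 1 or NC replicate 2 (up to 0.0522), and Mif without NSUN2-KO replicate 1 or NC replicate 3 (up to 0.0678). P2ry6 missed without NSUN2-KO replicate 2, NC replicate 2 or NC replicate 3 (up to 0.0589). C5ar1 and Gng12 missed without NSUN2-KO replicate 1 or 2, or NC replicate 2 or 3 (up to 0.102 and 0.122). Rgs1 missed without NSUN2-KO replicate 1 or 2, or NC replicate 1 or 2 (up to 0.0796).

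For each tested receptor, the genes most like it over the 6 libraries were those with the smallest root mean square difference of centred log2(FPKM + 1) among 8520 protein-coding genes. Ccrl2 was matched most closely by Tnf (0.0273), Fpr1 by Plekha5 (0.0236), and Fpr2 by Zbtb18 (0.00801). The nearest to Ccr7 were Vnn3 (0.112) and Ido1 (0.115), on a measure that scales with a gene's own spread, which was wider for Ccr7 than for the other receptors. For Ccr1 the nearest was Chmp2a (0.0171), for Ccr2 Pmaip1 (0.0300) and for Cxcr4 Ppp2r1b (0.0295). With 6 libraries in 2 groups, this measure includes the difference between the groups.

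**Figure D4:**
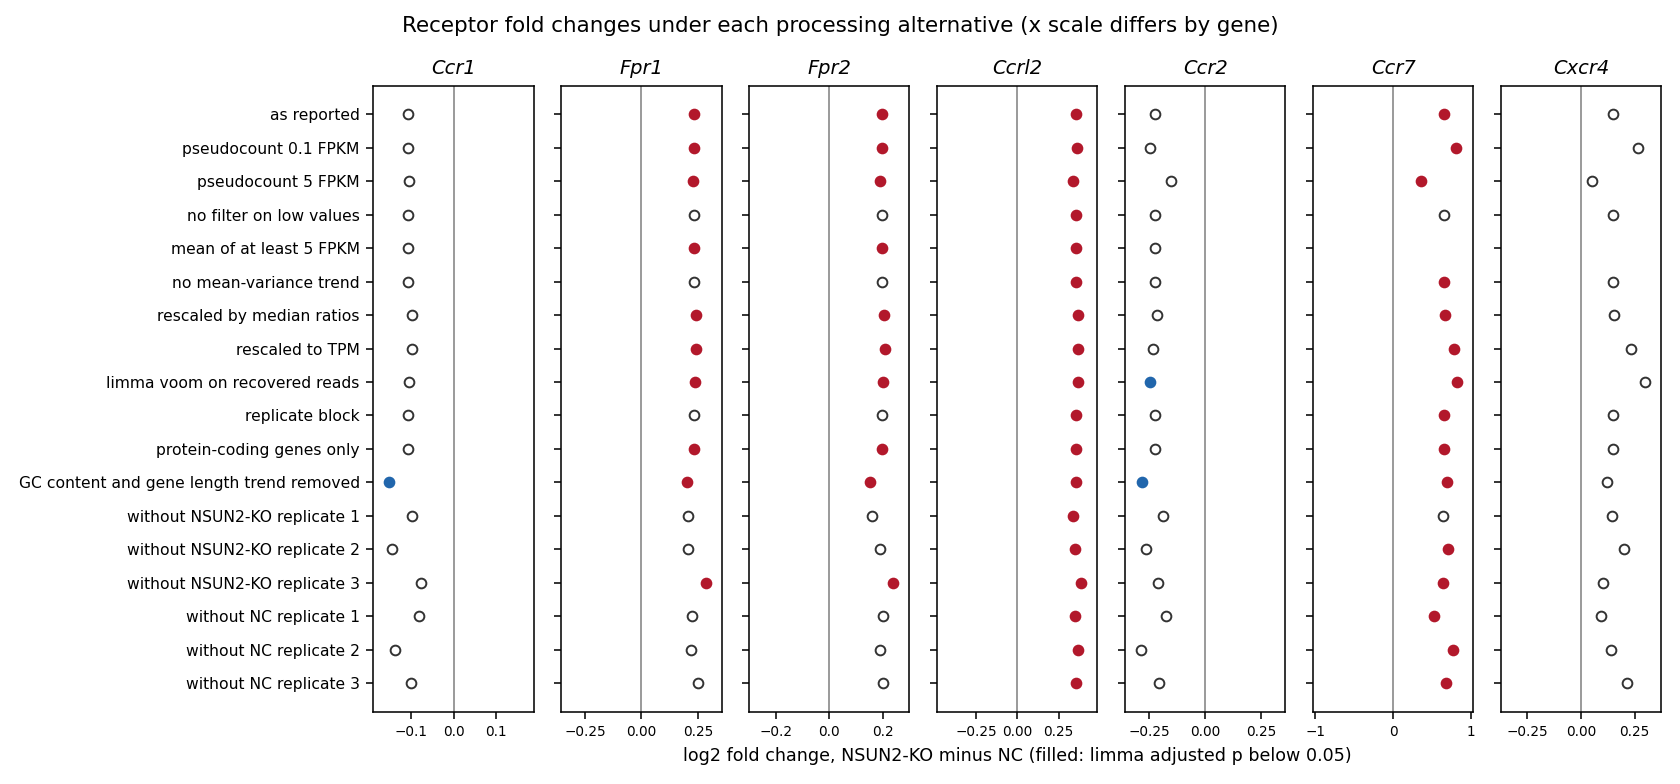
Log2 fold change (NSUN2-KO minus NC) of each tested receptor under every processing alternative; filled points have a limma adjusted p below 0.05 and open points do not. Ccrl2 stays filled between 0.34 and 0.39, while Fpr1 and Fpr2 turn open under 8 settings each.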

How the data were processed

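Bulk RNA-seq of 6 libraries (3 NSUN2-KO, 3 NC) was analysed. The FPKM values were deposited by the authors with gene lengths and GRCm38 positions. The submitters' processing notes name GRCm38 (mm10) and, as tools, HISAT2 2.0.5, fastp, CASAVA 1.8, DESeq2 1.20.0 and featureCounts 1.5.0-p3. The role of each tool, the annotation release and the strand setting are in none of the sources used. FPKM times gene length gave whole multiples of a per-library step for 100% of values (tolerance 0.01 reads), which yielded the read numbers. Read-based floors cover counting error only.

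Log2(FPKM + 1) was compared with limma 3.58.1 (R 4.3.3, mean-variance trend, no covariate) for genes averaging 1 FPKM or more, and p-values were adjusted by Benjamini-Hochberg over all 9443. Fold changes are NSUN2-KO minus NC on that scale, which understates changes of low genes. Summaries, permutation tests and plots used Python 3.11.15, pandas 2.3.3, scipy 1.17.1 and matplotlib 3.10.9. The fit was also run on simulated reads, where it recovered 68.0% of 1.25-fold and 91.7% of 1.5-fold changes. Those reads had the same relative spread for all genes and no GC trend, unlike the real libraries. The members and lists were chosen with earlier results of these data known. Named genes were the 8 receptors, the called genes of each list (at most 6 by smallest p), the nearest genes by pattern, Nsun2 and sex-linked genes; exceptions are stated. Alternatives changed the pseudocount (0.1 or 5) and the filter (none, or at least 5 FPKM), or used no trend, median-ratio or TPM scaling, limma voom on recovered reads, a replicate block, protein-coding genes, GC content and length trend removal (loess, span 0.5; GC from GENCODE vM21 transcripts) and leaving out each library. Receptor proteins were not compared, and 1 listed gene and 1 nearest gene are not reported here.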

Additional observations from a re-analysis of the deposited data

How the results depend on the processing

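Directions of the 7 tested receptors held under all 17 alternatives, or the 16 that could be computed for Ccr7 and Cxcr4, which a filter of 5 FPKM removed. Ccrl2 passed under each (0.34 to 0.39, adjusted p up to 0.0139) and Cxcr4 under none (0.05 to 0.30, adjusted p 0.290 to 0.646). The 802 changed genes became 265 with no filter, 526 with no trend, 1370 by voom, 351 with the replicate block and 276 to 596 without 1 library. Higher receptors numbered 1 with no filter, 2 with no trend, 2 with the block and 1 to 4 without 1 library; lower ones numbered 1 by voom and 2 with the GC trend removed. The listed receptors, ligands and signalling genes called, 16 as reported, numbered 6 with no filter, 25 by voom, 9 with the block and 8 to 15 without 1 library. Ccr1 passed with the GC trend removed (-0.15, adjusted p = 0.00812), and Ccr2 did by voom (-0.25, 0.0157) and with the GC trend removed (-0.28, 0.0199). Ccr7 missed with no filter (0.66, 0.0884) and ranged over 0.53 to 0.77 without 1 library. Fpr1 at 0.23 and Fpr2 at 0.20 missed with no filter (0.111 and 0.123), no trend (0.0630 and 0.0790) and the block (0.0749 and 0.0744); without 1 library they spanned 0.21 to 0.28 and 0.16 to 0.24. With no filter more genes enter both the adjustment and the fit of the mean-variance trend. The cause of the changes was not tested for any setting. Same-numbered replicates were not paired, since their deviations correlated at -0.00952, -0.0298 and 0.00343 and no library correlated best with its own number. The block rests on the number alone, and whether same-numbered replicates share anything more was not tested. Cxcr4 and Cx3cr1 rested on 43 to 88 reads a library, and whether depth limits them was not tested.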
